A study of Homo sapiens with 6 samples.

Results

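The response shared by 2 microRNA precursors was examined in MDA-MB-231, a human triple-negative breast cancer cell line. The mean of both precursor groups, with 2 arrays each, was set against the 2 arrays of a scrambled control (the pooled comparison below). The spread was estimated within each group, so differences between the microRNAs did not count as error. A gene counted as shared when the mean of both precursors differed from the control by at least 2-fold at an adjusted p under 0.05, and when all 4 precursor arrays were above, or all below, both controls. Of 11974 genes tested, 118 (0.985%) were called lower and 156 (1.3%) were called higher with both precursors, 274 in all.

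A microRNA is a short RNA that guides an Argonaute protein to messenger RNAs, mostly through its seed (bases 2 to 8), and the paired messenger is destabilised or less translated. A precursor molecule is a double-stranded RNA that the cell loads in the same way. hsa-miR-205-5p is known as an epithelial microRNA that targets the repressors of E-cadherin, and hsa-miR-214-3p has been studied in bone, muscle and tumor invasion. The mature sequences are shown because the rule assumes that they have little in common, with the seed in capitals (RefSeq, GRCh38.p14, read 5′ to 3′).
hsa-miR-205-5p: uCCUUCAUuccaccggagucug
hsa-miR-214-3p: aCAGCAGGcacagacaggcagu
The first lies on the plus strand at chr1:209432166-209432187 and the second on the minus strand at chr1:172138816-172138837, both 22 bases long. Their seeds were alike at 1 of 7 positions, and the longest run that both mature sequences shared was 3 bases. With the opposite arms of both hairpins included, the 4 arms had 4 different seeds.

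The 3 groups were MDA-MB-231 cells that received the hsa-miR-205-5p precursor (called miR-205-5p below), the hsa-miR-214-3p precursor (miR-214-3p) or the scrambled control (SCR), with 2 arrays in each, and the RNA was taken 72 h after transfection. All cells had therefore been through a reverse transfection with a small RNA, and no untransfected cells are in the comparison. All groups are of a single cell line, and since the labels do not say whether replicates came from separate cultures, the p-values measure the spread between these samples, which may be technical. Each array was hybridized with RNA in 1 color, and the level of a gene is its log2 signal minus the 75th percentile of its array, so 0 is the signal of that percentile. All 6 arrays lay on 1 slide. The SCR arrays stood in its columns 1 and 2 and all 4 precursor arrays in columns 3 and 4, so that slide column and the pooled comparison cannot be told apart.

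The SCR arrays were also the brightest. Their 75th percentile of processed signal was 50.3 and 58.0, against 35.1 to 48.4 on the precursor arrays, and 40.7% and 42.2% of their spots were well above background, against 35.4% to 39.5%. The part of this difference in the calls was not tested. Among markers of this cell line, 10 of 10 (VIM, CD44, AXL and others) were above background on all 6 arrays. Of 10 luminal markers, 7 (GATA3, TFF1, CDH1, EPCAM, ERBB3, KRT19 and AGR2) were above background on all 6 arrays and 3 (ESR1, PGR and FOXA1) on none, as were 7 of 10 fibroblast and endothelial markers and 3 of 6 leukocyte markers with a probe. The leukocyte markers CD14 and CD68 were above it on all 6 arrays and PTPRC on 2. PECAM1 was above it on 3 arrays, and LUM and ACTA2 on 1 each.

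The median mean change over all genes tested was −0.01 on the log2 scale. Without the limits on size and p, all 4 precursor arrays lay below both SCR arrays in 1090 genes (9.1%) and above both in 1458 genes (12.2%). Adjusted p and size alone were passed by 161 genes lower and 165 higher, and 52 of these fell out because at least 1 precursor array reached the range of the control. The called genes had adjusted p-values between 0.0237 and 0.0499 (limma). Their median change was −1.32 for lower and 1.22 for higher genes. Both precursors each reached a 2-fold change in 38 of the lower and 79 of the higher genes, and each precursor passed a test of its own in 25 and 53. Since both precursors are set against the same SCR arrays, an SCR array that lies low or high for a gene moves both changes together. Over kept probes the 2 SCR arrays differed by a root mean square of 0.668. SCR replicate 2 was closer to the miR-214-3p arrays (0.584 and 0.635), and every other distance between an SCR and a precursor array was larger (0.753 to 1.05).

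**Figure D1:**
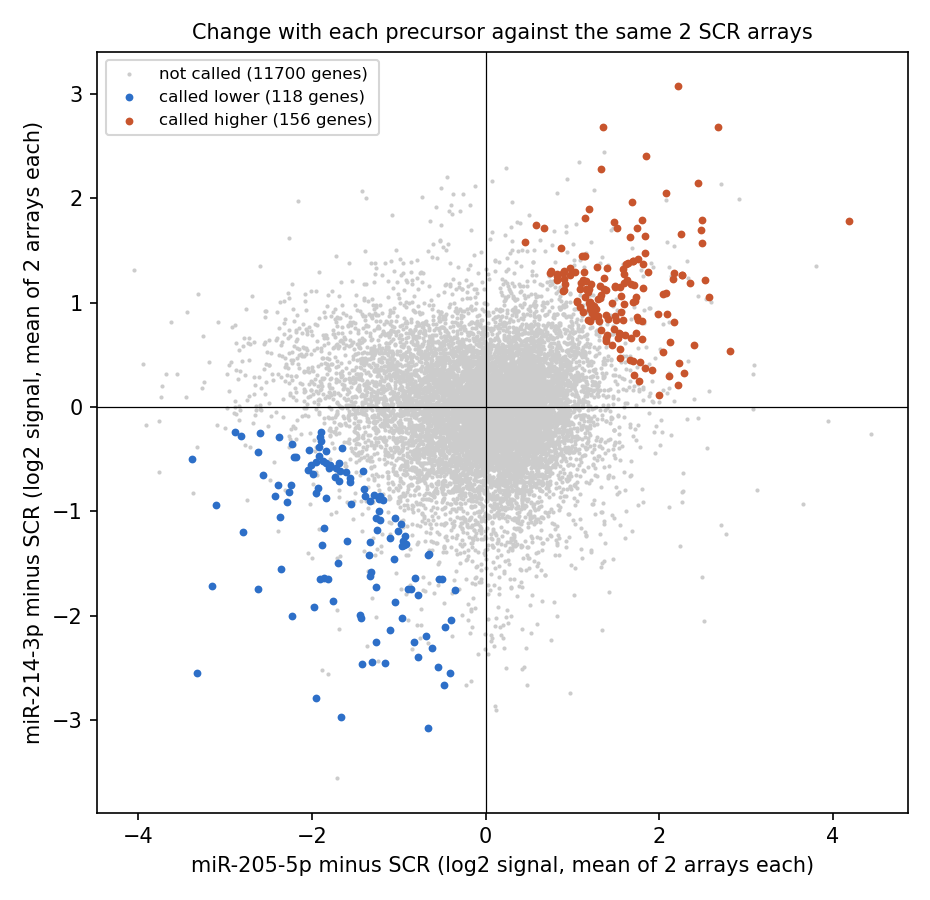
Each point is 1 of 11974 genes, with its log2 change with miR-205-5p on the x axis and with miR-214-3p on the y axis, each the difference of 2 array means, against the same SCR arrays. The 118 genes called lower (blue) fill the lower left and the 156 called higher (orange) the upper right, which the rule fixes, and 41 of the grey genes in the other corners lay on opposite sides of SCR by the rule given in the text.

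These counts rested on all 4 precursor arrays and on how the spread was estimated. Leaving out any 1 of the 4 precursor arrays left 0 genes called in either direction (limma), although 220 to 271 lower and 244 to 251 higher genes then had an unadjusted p under 0.05 at 2-fold with all remaining arrays on the same side. Without SCR replicate 1 the counts were 393 lower and 360 higher, and without SCR replicate 2 they were 104 and 213. When the 4 precursor arrays were fitted as 1 group, so that differences between the microRNAs counted as error, 0 genes passed, the smallest adjusted p was 0.124, and 162 lower and 224 higher genes had an unadjusted p under 0.05. Of the calls 43.1% were lower, close to 44.1% with quantile normalization, 43.8% with the authors' table and 48.6% with the percentile over probes above background on all arrays. Other scalings moved the split, to 84.8% (374 lower, 67 higher) with arrays scaled to their median, where the median of all genes was −0.29, and 75.8% (97 and 31) with normexp background correction, which fits and removes a background distribution.

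**Figure D2:**
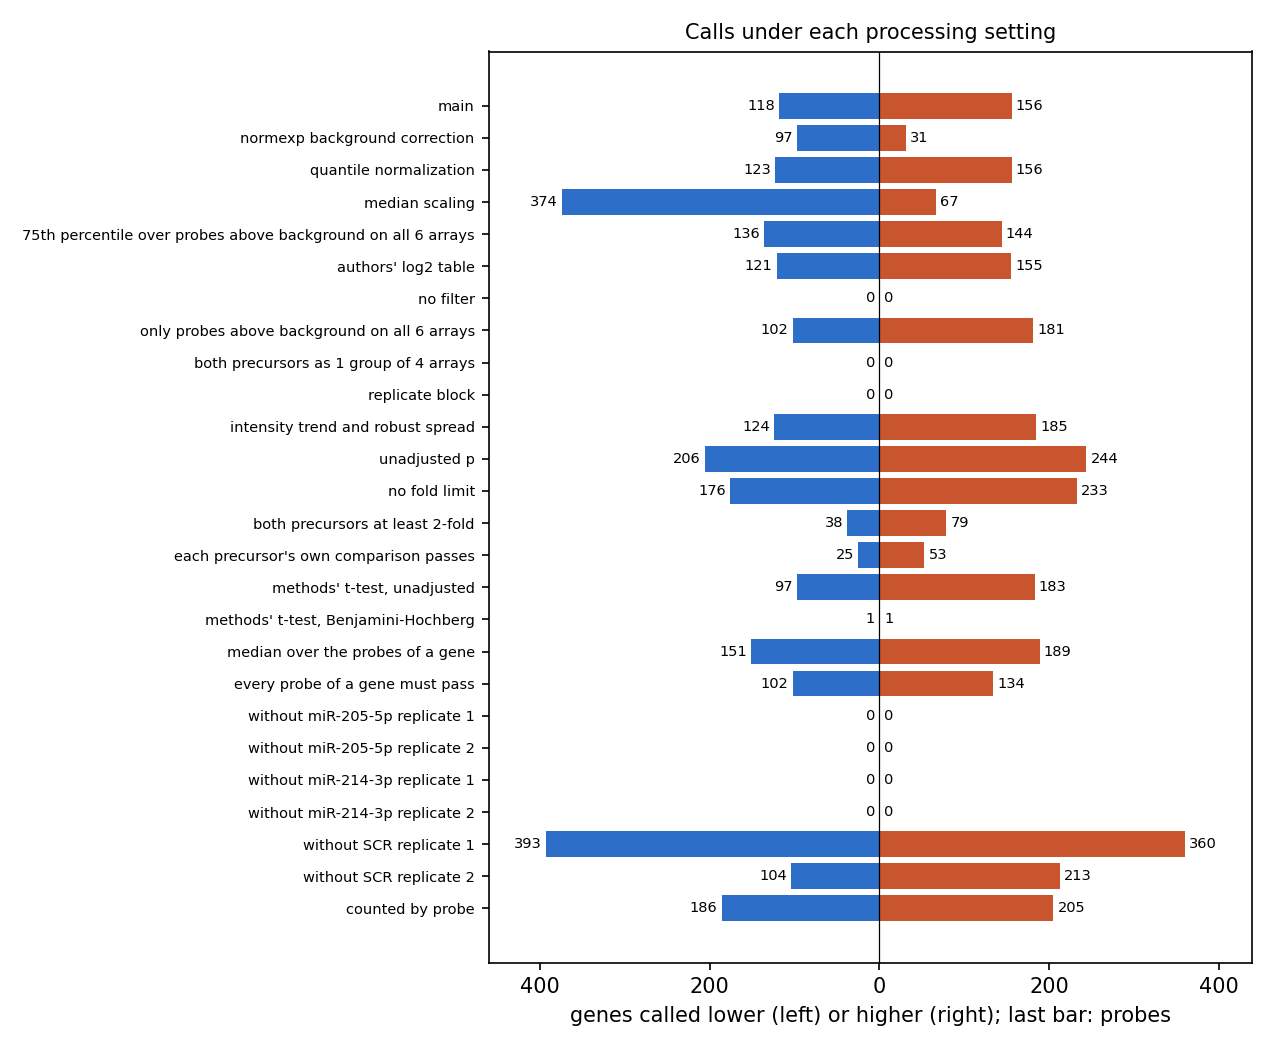
Horizontal bars give the number of genes called lower (left, blue) and higher (right, orange) with both precursors under each processing setting, the setting used in the text first (the last bar counts probes). The bars are 118 and 156 in that setting, are 0 wherever a precursor array was left out, and lean to the left under median scaling.

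Among genes that rose with both precursors, HHIP and FSTL1 stood first by the smaller of their 2 changes. HHIP, a membrane protein that captures Hedgehog ligands, had a level of 2.13 and 2.06 on the miR-205-5p arrays, 2.12 and 2.09 on the miR-214-3p arrays, and −0.73 and −0.43 on the SCR arrays. The 4 precursor arrays lay within a narrow band and far above both controls, with either microRNA. The mean of 2.10 ± 0.03 (SD, n = 4 arrays, 2 of each precursor) was 6.42-fold that of SCR (log2 fold change 2.68, standard error 0.15, adjusted p = 0.0237, limma). The SD describes these arrays, and the standard error comes from the spread within groups. Under normexp correction the log2 fold change was smaller, 1.54. FSTL1, a secreted glycoprotein that binds ligands of the BMP family, had levels of 7.17, 7.22, 8.01 and 8.10 on the precursor arrays, in the same order, and 4.88 and 5.09 on the SCR arrays. It rose by 2.64 on the log2 scale (standard error 0.14, adjusted p = 0.0237, limma), more with miR-214-3p (3.08) than with miR-205-5p (2.21). Secreted ADAMTSL4, which binds fibrillin microfibrils, had levels of 0.69 to 0.92 on the precursor arrays and −0.59 and −1.39 on the SCR arrays. Its precursor arrays were tight, and its 2 SCR arrays were farther apart.

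Receptors and surface proteins came next. IL1RAP, the shared co-receptor of interleukin-1 and interleukin-33, had levels of 1.81, 1.76, 1.50 and 1.48 on the precursor arrays against −0.78 and −0.53 in SCR. Its rise of 2.30 on the log2 scale (standard error 0.14, adjusted p = 0.03) was close in both groups, with 2.44 for miR-205-5p and 2.15 for miR-214-3p. FZD5, a Wnt receptor, had levels of 0.77, 0.85, 0.77 and 0.78 against −1.46 and −1.09, a rise of 2.07 (standard error 0.16). The precursor arrays of FZD5 were tight as those of HHIP were, and the precursors differed by 0.04 (adjusted p = 0.888). CEMIP2, a cell surface hyaluronidase, had levels of 2.75, 2.58, 3.39 and 3.04 against 0.51 and 1.12.

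The other 6 of the 12 named genes act inside the cell or have no role given here. EMC10 and BCAP29 are proteins of the endoplasmic reticulum, the first a subunit of the complex that inserts membrane proteins. EMC10 had levels of 6.34, 6.31, 5.85 and 5.40 against 4.12 and 3.54 in SCR, and BCAP29 had levels of 3.86, 3.49, 3.71 and 3.24 against 1.88 and 1.79. UBE2V1, a partner of the enzyme that builds K63-linked ubiquitin chains, had levels of 5.99, 6.14, 5.73 and 5.22 against 3.65 and 3.99. In these 3 genes the lowest precursor array was still well above the higher SCR array. SWAP70, which binds F-actin and signals to Rac, rose by 1.83 (standard error 0.15), CRYBG2 by 2.09 (standard error 0.17) and C16orf74 by 2.03 (standard error 0.16). Under normexp correction the rises of the 12 were 0.76 to 2.40, against 1.74 to 2.68 in the processed signal. There 9 of the 12 kept their call and FZD5, ADAMTSL4 and CRYBG2 lost it. All 12 kept their direction in every alternative, which the side rule fixed wherever an array was left out or the same signal was refitted.

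**Figure D3:**
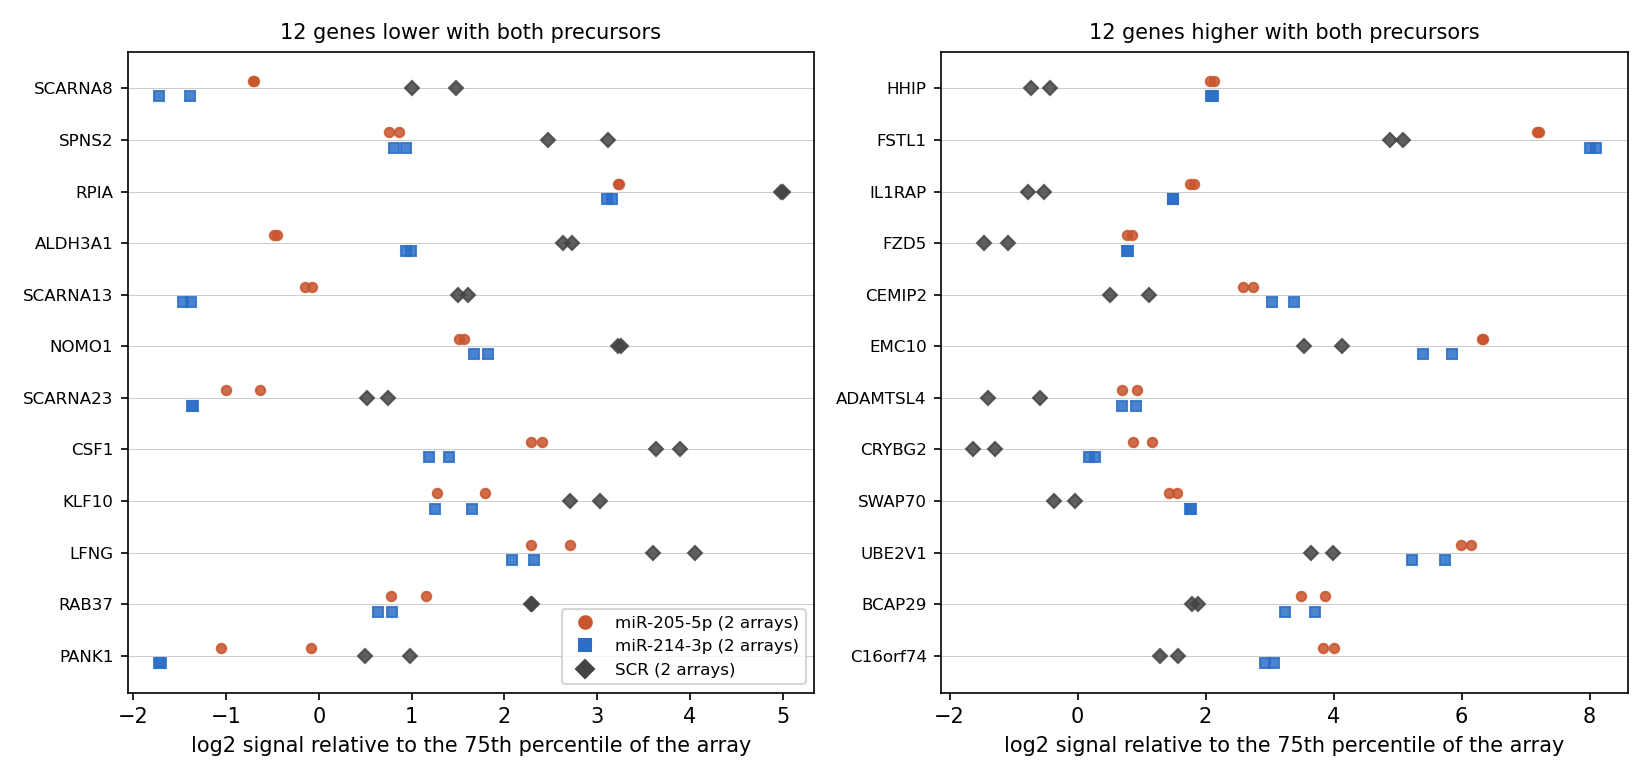
Each row is a gene and each mark an array, placed by log2 signal relative to the 75th percentile of its array (orange circles miR-205-5p, blue squares miR-214-3p, grey diamonds SCR). In all 24 genes the 4 precursor marks lie on 1 side of both SCR marks, which the rule required, and the precursor marks of HHIP, FZD5, SPNS2 and RPIA lie almost on top of each other.

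Of the 12 genes named as lower, 9 encode proteins and 3 are small Cajal body RNAs. SPNS2, which exports sphingosine-1-phosphate, had levels of 0.87, 0.76, 0.94 and 0.81 on the precursor arrays and 3.12 and 2.46 in SCR. RPIA, the ribose-5-phosphate isomerase of the pentose phosphate pathway, had levels of 3.22, 3.24, 3.16 and 3.11 against 4.98 and 5.00. For RPIA both the precursor arrays and the SCR arrays were tight, with 3.18 ± 0.06 (SD, n = 4 arrays, 2 of each precursor) and 4.99 ± 0.01 (SD, n = 2). It fell by 1.81 on the log2 scale (standard error 0.13, adjusted p = 0.03, limma). SPNS2 fell by 1.95 (standard error 0.22, adjusted p = 0.0324), and the precursors differed by −0.06 for it and by 0.09 for RPIA. NOMO1, an endoplasmic reticulum protein with near-identical copies in the genome that the probe may not separate, had levels of 1.51, 1.57, 1.82 and 1.68 against 3.26 and 3.23.

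ALDH3A1 and CSF1 fell with both precursors but not to the same degree. ALDH3A1, an aldehyde dehydrogenase, had levels of −0.45 and −0.48 with miR-205-5p, 0.94 and 1.00 with miR-214-3p, and 2.73 and 2.63 in SCR. The arrays formed 3 steps without overlap, and the gene fell by 3.15 log2 units with miR-205-5p and by 1.71 with miR-214-3p. CSF1, the growth factor of macrophages, had levels of 2.28 and 2.40 with miR-205-5p, 1.19 and 1.40 with miR-214-3p, and 3.89 and 3.63 in SCR. Here the order of the precursors was the reverse. CSF1 is among the genes that the study singled out on these samples for miR-214-3p, so its fall with that precursor is not independent. A dimmer CSF1 probe changed by 0.35 with miR-205-5p and by −2.07 with miR-214-3p, so probes of this gene disagreed on the first, while the other was called lower too, at −0.88 and −2.17.

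The remaining named genes were KLF10, LFNG, RAB37 and PANK1. KLF10, a transcription factor induced by TGF-beta, had levels of 1.79, 1.27, 1.65 and 1.25 against 3.03 and 2.71. LFNG, the glycosyltransferase that modifies Notch receptors, had levels of 2.71, 2.28, 2.32 and 2.08 against 4.06 and 3.60. The replicates of these 2 genes were wider apart, and their adjusted p-values were 0.0457 and 0.0412. RAB37, a GTPase of secretory vesicles, fell by 1.45 (standard error 0.17), and PANK1, which starts coenzyme A synthesis, by 1.88 (standard error 0.31). The miR-205-5p replicates of PANK1 were −0.09 and −1.05, and its call was lost under normexp correction, where the falls of the 12 lower genes were 0.62 to 1.78, against 1.38 to 2.43 in the processed signal. Among the 24 named genes, KLF10 and PANK1 also lost their call without SCR replicate 1, and these with LFNG, RAB37 and BCAP29 without SCR replicate 2, at adjusted p-values of up to 0.0726.

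By RNA class in the RefSeq table, 38.9% of the small Cajal body RNAs were called lower, against 0.943% of protein-coding genes. These RNAs guide chemical modification of the RNAs of the spliceosome within Cajal bodies of the nucleus. Of the 18 measured, 7 fell with both precursors and 0 rose, and the family median was −0.72 against −0.01. SCARNA13 had levels of −0.15 and −0.07 with miR-205-5p, −1.46 and −1.38 with miR-214-3p, and 1.61 and 1.51 in SCR. SCARNA8 had levels of −0.71, −0.70, −1.72 and −1.39 against 1.48 and 1.00. In both, every precursor array lay far below the lower SCR array. SCARNA13 fell by 2.32 (standard error 0.13, adjusted p = 0.0237) and SCARNA8 by 2.37 (standard error 0.20, adjusted p = 0.03, limma).

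The other 5 that fell were SCARNA11 (mean log2 change −1.81), SCARNA16 (−1.76), SCARNA23 (−1.72), SCARNA20 (−1.49) and SCARNA14 (−1.44). All 7 fell further with miR-214-3p, by 1.99 to 2.98, than with miR-205-5p, by 0.69 to 1.95. The difference between the precursors passed its own test at 2-fold in 4 of them (SCARNA11, SCARNA13, SCARNA14 and SCARNA20). Of the 11 that were not called, 2 (SCARNA22 at −1.27 and SCARNA12 at −0.55) had all 4 precursor arrays below both SCR arrays, and 4 had a mean change of 0 or more, the highest being SCARNA2 at 0.45. With miR-214-3p 17 of 18 were lower on average and with miR-205-5p 9 of 18. Under normexp correction the 7 falls shrank to between 0.62 and 1.54, from 1.44 to 2.37, with SCARNA8 and SCARNA13 both at −1.13. There 6 of the 7 calls remained, without SCR replicate 1 or 2 all 7, and where each precursor had to reach 2-fold 5 (SCARNA14 and SCARNA20 were lost). As for all genes, 0 of the 7 remained without any 1 precursor array, with both precursors as 1 group, with a replicate block or without the filter on dim probes. All 7 stayed lower, which the side rule fixed in these settings.

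Most small Cajal body RNAs are cut from introns of other genes. For 6 of the 7 that fell, the gene whose span holds the small RNA in the RefSeq table was measured too, 7 genes in all because SCARNA16 lies within both SNHG20 and SEC14L1. None of these 7 genes was called, with mean changes from −0.63 (CHD4, around SCARNA11, adjusted p = 0.0953) to 0.94 (HAUS6, around SCARNA8, adjusted p = 0.103, limma). For HAUS6 all 4 precursor arrays lay above both SCR arrays while SCARNA8 lay below. The labeling kit primes on poly(A) tails, which mature small Cajal body RNAs lack, and the probes cannot tell a mature small RNA from a longer transcript that holds it. Related small nucleolar RNAs, which guide modification of ribosomal RNA, did not share this count: 1 of 169 fell (SNORD34, −1.07, of which −1.90 with miR-205-5p and −0.24 with miR-214-3p) and 0 rose, with a median of −0.21. This is 0.592% lower, near the 0.985% over all genes. All 4 precursor arrays lay below SCR for 32 of them and above for 9, against 9.1% and 12.2% of all genes. The proteins of these particles and of Cajal bodies had 0 of 19 called, against 0.985% lower and 1.3% higher over all genes, with NPM1 at −0.13 and FBL at −0.03.

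**Figure D4:**
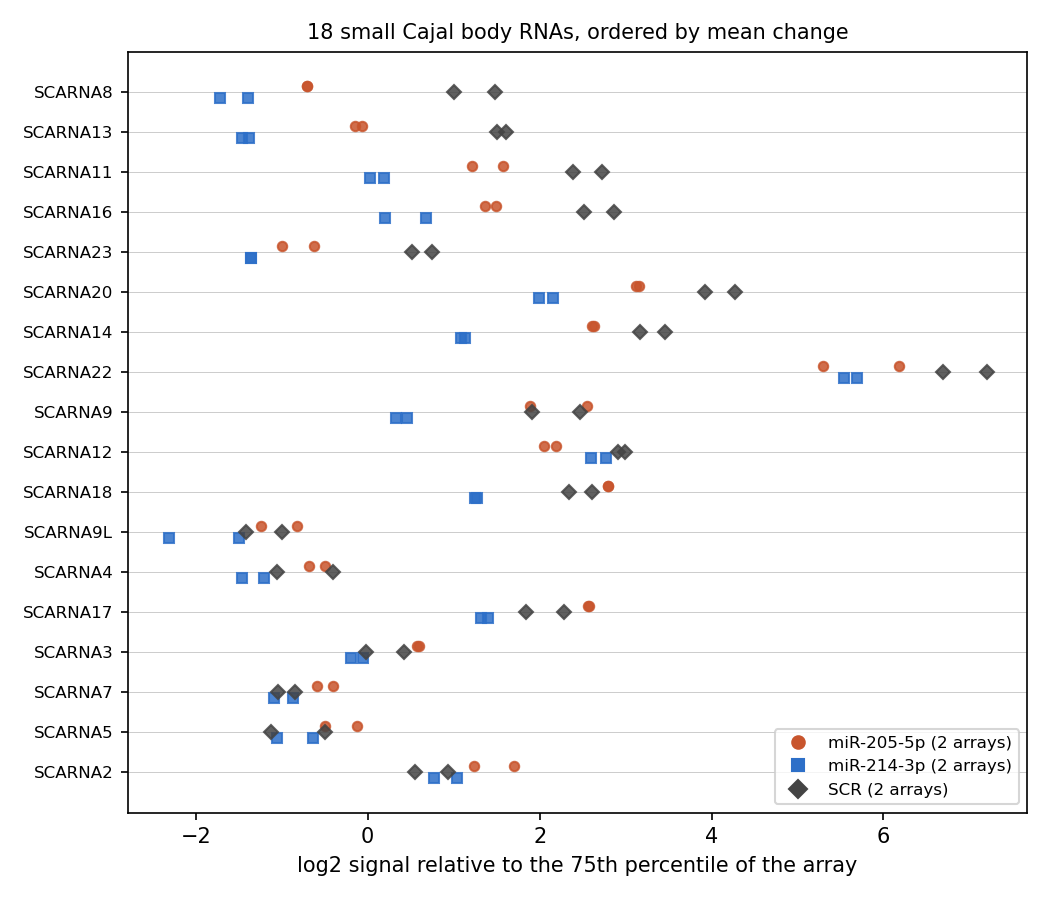
Rows are the 18 small Cajal body RNAs, ordered by mean change, and marks are arrays on the log2 signal scale (orange circles miR-205-5p, blue squares miR-214-3p, grey diamonds SCR). In the upper rows both precursors lie left of SCR with miR-214-3p farthest. In the lowest rows, such as SCARNA2 and SCARNA5, the miR-214-3p and SCR marks mix, and the miR-205-5p marks lie to their right, barely so in SCARNA5.

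Some genes crossed the background. Of the lower genes, 86 were above background on all 6 arrays, and 13 were above it on both SCR arrays but on none of the 4 precursor arrays, so that only a lower limit of the fall is known. These 13 passed the filter on dim probes through SCR alone, so their calls are a description. HCP5, a long noncoding RNA from the MHC class I region, was at least 3.14-fold lower, with levels of −0.43 and 0.12 in SCR. MOSMO, a modulator of Smoothened, was at least 1.65-fold lower, CYB5B, a cytochrome b5 of the outer mitochondrial membrane, at least 1.63-fold, AP5B1 of the AP-5 adaptor complex at least 1.17-fold and C10orf90 at least 1.03-fold. All 5 lost their call under normexp correction. Of the higher genes, 140 were above background on all 6 arrays and 4 were above it on all precursor arrays but on neither SCR array. These were ENTPD8, an ectonucleotidase, at least 2.71-fold higher, ARHGAP20 at least 2.46-fold, FAM135A at least 2.32-fold and RASAL3, a Ras GTPase-activating protein, at least 2.24-fold, and all 4, kept by the filter through the precursor arrays alone, lost their call under normexp. DOK7, named because its mean change was the highest of all, was above background with miR-205-5p alone.

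Genes of the extracellular matrix and of mesenchymal state were among those that rose. Of 29 matrix and protease genes 3 rose and 0 fell (median 0.22), against 1.3% and 0.985% of all genes. MMP1, the interstitial collagenase, had levels of 6.17 and 6.17 with miR-205-5p, 4.31 and 4.39 with miR-214-3p, and 3.98 and 3.90 in SCR. Its rise was 2.23 with the first and 0.42 with the second, so that 1 precursor carried most of the pooled change. MMP9, a gelatinase, was at least 2.47-fold higher over both precursors. It was above background on both miR-205-5p arrays, 1 miR-214-3p array and 1 SCR array and was kept through miR-205-5p alone, so without it the count is 2 of 28. COL12A1, a fibril-associated collagen, rose by 1.40 and 0.69. Of 14 genes of epithelial-mesenchymal transition, 3 rose and 0 fell (median 0.15, with −0.17 for miR-205-5p and 0.42 for miR-214-3p). LOX and LOXL2, enzymes that crosslink collagen and elastin, rose evenly: LOXL2 by 1.60 and 1.28 and LOX by 1.13 and 1.30 with miR-205-5p and miR-214-3p. The LOX levels of 2.29, 2.23, 2.46 and 2.38 were all above the SCR levels of 1.14 and 1.11. CDH2, N-cadherin, rose by 1.59 and 0.99, near background in SCR (−1.98 and −1.82).

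Epithelial genes changed in both directions. Of 25 junction and keratin genes 2 rose and 1 fell (median 0.35), and 7 had all precursor arrays above SCR, against 1.3% called higher, 0.985% called lower and 12.2% above SCR over all genes. ESRP2, a splicing factor of epithelial cells, had levels of 3.93, 3.90, 2.91 and 2.93 against 2.01 and 1.64, and CLDN3, a tight junction protein, 2.88, 2.74, 2.84 and 2.86 against 1.79 and 1.65. CLDN3 was again even between the precursors, with rises of 1.09 and 1.13. ELF3, an epithelial transcription factor, was at least 2.25-fold lower over both precursors, since it was above background on 1 of the 2 miR-205-5p arrays, and it is a gene that the study named for miR-205-5p on these samples. TFF1, a trefoil peptide, was the 1 called gene of the 7 luminal markers tested and fell by 2.22 and 0.36, while the median of the 7 was 0.58, with 1.18 for miR-205-5p and −0.02 for miR-214-3p. EPCAM, an adhesion molecule, had levels of 3.21 and 2.77 with miR-205-5p, 0.53 and 0.80 with miR-214-3p, and 0.35 and 0.83 in SCR. CDH1, E-cadherin, had levels of 0.87 and 0.64, −1.30 and −1.47, and −1.09 and −1.33 in the same order. The miR-205-5p arrays of both genes stood above SCR and the miR-214-3p arrays did not. The summed luminal list was likewise 10.6 and 10.8 with miR-205-5p, 9.52 and 9.64 with miR-214-3p, and 9.82 and 9.48 in SCR, and its part in the calls was not tested. PECAM1, an endothelial marker, was at least 2.03-fold lower, above background on 1 miR-214-3p array, no miR-205-5p array and both SCR arrays, through which alone it was kept, and the summed fibroblast and endothelial list was 0.43 to 0.62 against 0.57 and 0.75.

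Both precursors and the scrambled control are foreign RNA. Double-stranded RNA is sensed by RIG-I-like receptors, Toll-like receptors and PKR, which induce interferon genes. A response that SCR shares cancels in this comparison, so sensing of the transfected RNA as such was not tested. Of 34 interferon-induced genes, 1 rose and 0 fell (median −0.08). Over all genes 1.3% were called higher and 0.985% lower. It was IFIT1, which binds foreign RNA ends, with levels of 7.46 and 7.28 with miR-205-5p, 6.29 and 6.30 with miR-214-3p, and 5.80 and 5.85 in SCR. The rise was 1.54 with miR-205-5p and 0.47 with miR-214-3p, and 1.01 on average, near the 2-fold limit. The call was kept in 4 of 21 alternatives, several of which called no gene at all. RPIA, farther from the limit, kept its call in 14 of 21. Of 23 RNA sensors and interferon signaling genes, 0 were called in either direction by limma, with STAT2 at 0.19 and IRF7 at 0.23 on average, 0.63 and 0.75 with miR-205-5p and −0.26 and −0.29 with miR-214-3p. In the processing of microRNAs, 0 of 18 genes were called, among them RAN at −0.07 and ZSWIM8 at 0.30. TAPBP, the tapasin of the peptide loading complex, fell by 1.07 as the only called one of 18 antigen presentation genes. This rests on 1 of 3 probes, since the other 2, above background on all 6 arrays, were at −0.14 (adjusted p = 0.583) and −0.09 (adjusted p = 0.802, limma).

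Of 24 cytokine and NF-kB genes, 2 rose and 1 fell, against 1.3% and 0.985% of all genes. ICAM1, an adhesion molecule for leukocytes, rose by 2.17 and 0.81, and IL7R, the interleukin-7 receptor, by 1.15 and 1.45, while CSF1 fell as described. IL7R levels were 3.31, 3.27, 3.55 and 3.64 against 2.03 and 2.26. KISS1, whose peptide signals through a receptor and limits metastasis, CXCR4, the receptor of CXCL12, and SAA1, an acute phase protein, were chosen after their values were seen. KISS1 levels were 5.10, 5.08, 4.64 and 4.81 against 3.44 and 3.06 (log2 fold change 1.66, standard error 0.17). CXCR4 rose by 1.32 and SAA1 by 1.69 on average, both more with miR-205-5p (1.81 and 2.16) than with miR-214-3p (0.83 and 1.23).

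In metabolism, genes that fell were spread over several pathways. Of 21 genes of the NRF2 antioxidant response, 2 fell (ALDH3A1 and AKR1C3, an aldo-keto reductase, −1.11) and 0 rose, with a median of −0.41, and 6 had all precursor arrays below SCR and 0 above. Over all genes 0.985% were called lower, and the shares below and above SCR were 9.1% and 12.2%. HMOX1, a leading target of that response, had a mean change of −0.0036. TXNRD1, thioredoxin reductase, was at −2.87 with miR-205-5p and −0.07 with miR-214-3p and was not called, since its arrays overlapped with SCR. BACH1, a repressor that competes for the same DNA element and was chosen after its values were seen, rose by 1.22 (1.80 and 0.65). CYP1A1, a cytochrome P450 of xenobiotic metabolism that was likewise chosen, was at least 3.23-fold lower, below background on both miR-205-5p arrays, with levels of −2.19, −2.09, −1.58 and −1.08 against −0.27 and 0.71. Of 23 phospholipid genes, PEMT (phosphatidylethanolamine methyltransferase) fell by 0.48 and 2.67 and CDIPT (phosphatidylinositol synthase) by 0.54 and 1.65, each mainly with miR-214-3p. In cholesterol metabolism TM7SF2, a sterol reductase, fell by 1.15 and STARD4, a sterol carrier, rose by 1.23, 2 of 29 genes.

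BBC3, the BH3-only protein PUMA, was the 1 called gene of 19 p53 targets, where 1.3% of all genes were called higher and 0.985% lower. Its levels were 4.66, 4.72, 4.13 and 4.25 against 3.20 and 3.06, a rise of 1.31 (standard error 0.14, adjusted p = 0.0324, limma). BMF, another BH3-only protein and a gene the study named for miR-205-5p, fell by 2.01 and 0.55. They were the 2 called genes of 28 in the BCL2 and caspase families. WIPI1, of autophagosome formation, rose by 1.48 as 1 of 27 lysosome and autophagy genes, and NDUFA6, of respiratory complex I, rose by 1.10 as 1 of 77 genes of the respiratory chain and ATP synthase. CST2, a cystatin whose close paralogs may share the probe, fell by 3.38 and 0.50. ERRFI1, an inhibitor of the EGF receptor family, fell by 0.50 and 1.65, and TMED9, of the early secretory pathway, by 1.56 and 0.72.

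Many lists held no called gene by limma, which in lists of this size is near the share over all genes (0.985% lower and 1.3% higher). This was so for 77 cytosolic and 76 mitochondrial ribosomal proteins, 33 proteasome subunits, 29 splicing factors, 32 chaperones of the endoplasmic reticulum, 24 ATF4 targets, 19 aminoacyl-tRNA synthetases, 25 heat shock proteins and chaperonins, 9 metallothioneins, 14 integrins, 30 genes of glycolysis and hypoxia, 34 of MAPK output and 23 of TGF-beta signaling. It also held for 33 mitotic genes, 33 DNA replication genes, 55 histones and 7 CDK inhibitors. The mitotic genes had a median of −0.33, but −0.81 with miR-205-5p and 0.22 with miR-214-3p, and 5 of them had all precursor arrays below SCR and 0 above, against 9.1% and 12.2% of all genes. Among 18 genes of the YAP response, 9 had all 4 precursor arrays above both SCR arrays and 0 below, against 12.2% above over all genes, and CCN1 was at 0.28 and AXL at 0.24. None of these YAP genes passed the limit, the highest being at 0.90.

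**Figure D5:**
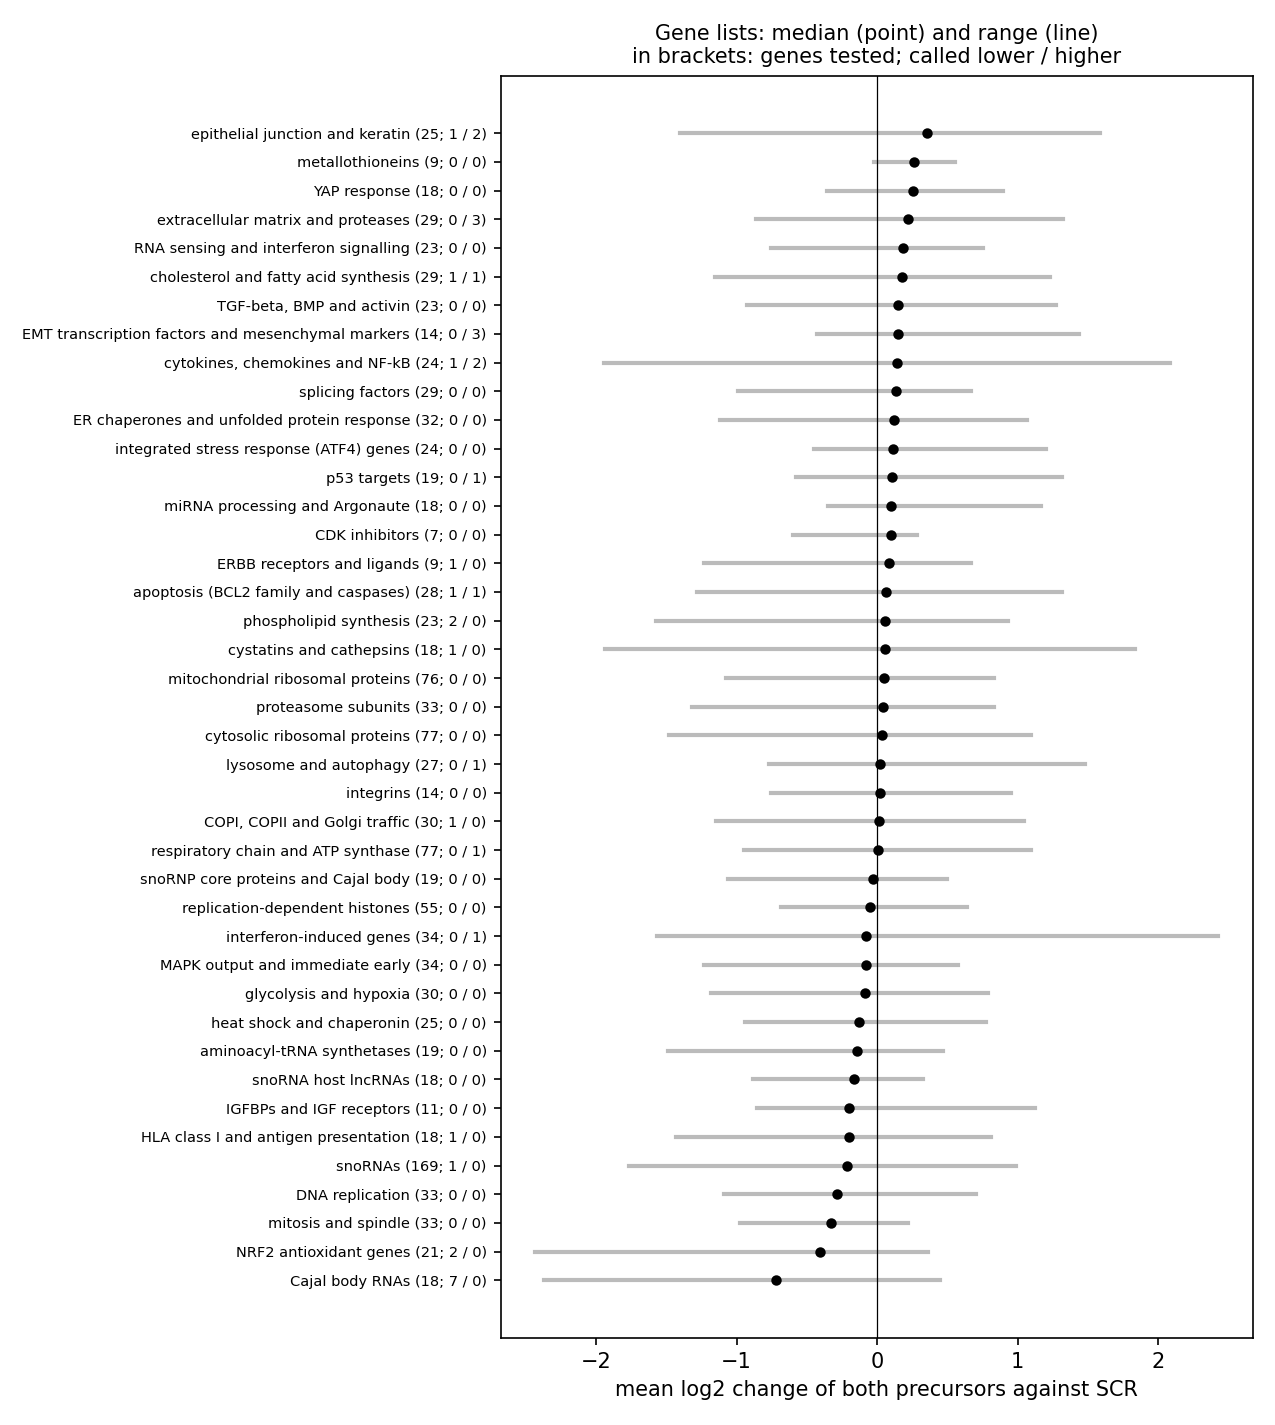
Rows are gene lists ordered by median, with the median (point) and range (line) of the mean log2 change of both precursors against SCR, and in brackets the genes tested and the numbers called lower and higher. Cell type markers, the genes picked by the study and lists under 7 genes are not drawn, and of the lists drawn the small Cajal body RNAs have the lowest median (−0.72), with 7 of 18 called lower.

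The study picked genes for each microRNA on these samples, so their counts are no independent evidence of direction, beside 0.985% of all genes called lower. Of 23 genes picked for miR-205-5p, 4 were called lower with both precursors (MOSMO, BMF, ELF3 and SLC25A21), of which MOSMO and SLC25A21 passed the filter on dim probes through SCR alone. Of 14 picked for miR-214-3p, 5 were (CSF1, ARHGAP25, UBE2J1, ARL2 and PSIP1). ARL2, a small GTPase, fell by 0.82 with miR-205-5p and by 1.64 with miR-214-3p, and UBE2J1, a ubiquitin-conjugating enzyme of the endoplasmic reticulum, by 0.78 and 2.40. ARHGAP25 was at least 2.20-fold lower over both precursors, since it was above background on 1 miR-205-5p array and on no miR-214-3p array, and it was kept through SCR alone. PSIP1, the chromatin protein LEDGF, fell by 0.95 and 1.28 on its main probe, while a dimmer probe, above background on 2 of 6 arrays, was at 0.65 and 0.98.

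Within the shared genes the precursors differed in size. The larger fall was with miR-205-5p in 73 lower genes and with miR-214-3p in 45, and the larger rise with miR-205-5p in 119 higher genes and with miR-214-3p in 37. A direct comparison of the precursor means, with a spread estimated from all 6 arrays, passed at 2-fold in 59 lower and 33 higher genes, 92 of 274. In some of these, 1 precursor showed little change against SCR. With miR-214-3p, SNORD34 was at −0.24 (adjusted p = 0.504) and MMP1 at 0.42 (adjusted p = 0.187, limma). Others, such as ALDH3A1, fell by at least 2-fold with each. Over all 274 calls, each precursor passed a test of its own in 25 lower and 53 higher genes. TFF3, a trefoil peptide chosen after its values were seen, was an extreme, with levels of 5.37 and 5.38 with miR-205-5p, 8.02 and 8.01 with miR-214-3p, and 8.43 and 8.08 in SCR. Its miR-214-3p arrays were just under the lower SCR array. SPINK4, a secreted protease inhibitor chosen likewise, fell more evenly, by 1.86 and 1.16.

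A further 41 genes (0.342% of those tested), above background on all 6 arrays, lay on opposite sides of both SCR arrays, each pair by at least 2-fold, and differed between the precursors (adjusted p under 0.05, limma). With miR-205-5p 22 of them were lower and with miR-214-3p 19. Each change against SCR passed a test of its own in 10 of the 41, so for the others the direction against SCR is a description. AP1M2, a clathrin adaptor subunit of epithelial cells, had levels of −0.64 and −0.31 with miR-205-5p, 4.67 and 5.10 with miR-214-3p, and 3.07 and 4.08 in SCR. SFXN3, a mitochondrial carrier, was at −1.58 and 1.38 from SCR, and NBPF14, of a family of near-identical copies, by −1.91 and 1.30. B3GNT3, a glycosyltransferase of mucin-type glycans, went the other way with levels of 6.18 and 6.69 with miR-205-5p, 1.75 and 1.98 with miR-214-3p, and 4.19 and 3.64 in SCR. PDLIM5, a PDZ and LIM protein at actin filaments, was at 1.36 and −1.47, and CPEB4, a regulator of mRNA polyadenylation, by 1.37 and −1.30. Their pooled changes lay between −0.06 and 0.23 for these 3.

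The limits of the rule fell among similar values. TBC1D22B (−1.01) and RBSN (1.0002) were just inside the 2-fold limit, and NUP214 (−0.993) and PON3 (0.995) were just outside. DDIT4L was inside the side rule, its lowest precursor array at −1.42 and its higher SCR array at −1.46, and NEURL1B was outside, its highest precursor array at 1.601 and its lower SCR array at 1.596. Another kept probe existed for 22 lower and 32 higher genes. Every other probe lay on the same side as the main probe in 8 of the 22 and in 23 of the 32, and 1 gene in each direction had a probe of opposite sign. For UBE2V1 the other probe rose by 2.18, for ALDH3A1 it fell by 2.03, and for EMC10 it rose by 1.06. It was at 0.45 for BCAP29 (adjusted p = 0.134), 1.47 for IL1RAP (adjusted p = 0.0578) and −0.88 for LFNG (adjusted p = 0.0879, limma). These 3, and CSF1 through 1 of its probes, lost their call where every probe of a gene had to pass.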

How the data were processed

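The 6 samples, RNA of transfected MDA-MB-231 cells, were hybridized to Agilent arrays in 1 color. Per the file headers, the authors deposited Feature Extraction 11.0 output with a processed signal intensity per spot, background subtracted and not normalized between arrays. They also deposited log2 values, whose columns share a median, and these served as an alternative.

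Control spots were left out, and so were outlier spots (245 to 463 per array), except where every spot of a probe was an outlier. Spots of a probe were averaged, log2 taken and the 75th percentile of each array subtracted. Of 50599 probes, 18468 were kept because both arrays of some group held them well above background, and 83.3% of these had a symbol in the RefSeq table (GRCh38.p14, used for names, since the build of the array design differs). The brightest probe stood for a gene. limma 3.58.1 (R 4.3.3) fitted 3 group means to all 6 arrays and tested the mean of both precursors against SCR, with Benjamini-Hochberg adjustment over kept probes. Residual degrees of freedom were 3, to which the prior on the variance added 2.47, and the number of arrays limits the precision. Folds given as "at least" set the brighter mean against, per array, the higher of the dim signal and the lowest signal among probes above background.

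The genes named are the first 12 in each direction by the smaller of the 2 changes among called genes above background on all 6 arrays, the first 5 that crossed the background, the first 3 opposite genes in each direction, up to 4 called genes of each list (the 2 brightest if none was called) and 1 gene at each edge of the rule, except where the text says otherwise. The comparison, gene lists and rules were chosen with earlier results of these data known.

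Alternatives were normexp (offset 50, on the median spot signal), quantile and median scaling, the authors' table, the percentile over probes detected on every array, other filters, both precursors as 1 group, a replicate block, an intensity trend with robust spread, unadjusted p, other fold rules, the methods' t-test, other probe rules and leaving out each array, which assumes that a lone array varies as the other groups do.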

Additional observations from a re-analysis of the deposited data

Results flagged for a closer look

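In 3 of 33 genes examined, the direct comparison of the precursors passed at 2-fold, so the shared direction came with different sizes. The level with miR-205-5p minus that with miR-214-3p was −1.43 for ALDH3A1 (adjusted p = 0.00451), 1.31 for SCARNA13 (adjusted p = 0.00534) and 1.05 for CSF1 (adjusted p = 0.0126, limma). All 4 precursor arrays were lower than SCR in each.

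In FZD5, the array of miR-205-5p replicate 2 stood apart from the other 3 precursor arrays by 0.841 of their range, past the limit of Dixon's test for 4 values. The levels were 0.77, 0.85, 0.77 and 0.78, a narrow range beside the rise of 2.07. It was the 1 such gene of the 33, and chance marks about 1 in 20.

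Probes without a gene symbol hold calls that no gene count includes. Of 3082 such probes kept, 19 were lower and 26 were higher with both precursors by the same limits.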

How the results depend on the processing

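The 81 called genes named in the text, by their main probe or the median of their probes, kept their direction in the alternatives in which they were fitted. The side rule fixed this wherever an array was left out or the same signal was refitted. Only other scalings or background correction, the authors' table and the median over probes could have turned it. The main counts of 118 lower and 156 higher genes became 374 and 67 with median scaling, 97 and 31 with normexp, 206 and 244 with unadjusted p, 38 and 79 when both precursors each had to reach 2-fold, and 25 and 53 when each had to pass its own test. The count by probe was 186 lower and 205 higher. The methods' t-test gave 97 and 183 before Benjamini-Hochberg adjustment and 1 and 1 after it. The calls fell to 0 and 0 without a filter on dim probes (21743 genes tested, 256 and 668 at unadjusted p under 0.05), with both precursors as 1 group, and with the replicate number as a block (207 and 244 at unadjusted p under 0.05). Leaving out 1 array gave 0 to 393 lower and 0 to 360 higher genes, highest without SCR replicate 1. The cause was not tested. Of the 81 genes, 45 kept their call under normexp, 71 with median scaling and 75 with quantile normalization or with the authors' table.

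Replicate numbers did not pair the samples. The deviations of same-numbered arrays correlated at 0.107 between the precursors, 0.0081 between miR-205-5p and SCR and −0.048 between miR-214-3p and SCR. The block removed all calls, with adjusted p from 0.0856 upward among the 12 lower and 12 higher named genes.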
